A study of Harpegnathos saltator with 27 samples.

Results

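The genes described here are 48 of the 20659 gene identifiers counted in the ant Harpegnathos saltator, chosen because brains of ants given a juvenile hormone analog stood apart from all others, while 20-hydroxyecdysone and solvent brains overlapped. They were chosen by their brain expression in CPM, the count per 1000000 gene counts of a library. In the brain, all 3 libraries of ants given the analog had to lie above, or all below, the 6 libraries of the other treatments. The ratio of the analog mean to the solvent mean, with 0.5 CPM added to both, had to be at least 1.5 or at most the inverse of that. Solvent and 20-hydroxyecdysone values had to overlap, and the highest group mean had to reach 2 CPM. With these criteria 25 genes lay on the high side and 23 on the low side. They are called raised and lowered below as names for those sides of the rule, and no brain value is evidence for the choice.

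Juvenile hormone is a lipid-like hormone made by a gland behind the insect brain, and it acts through the receptor Methoprene-tolerant and the transcription factor Kr-h1. Ecdysteroids, of which 20-hydroxyecdysone is the active form, act through the receptor pair EcR and USP. In Harpegnathos, adult workers can turn into egg-laying gamergates, and juvenile hormone and ecdysteroids have been linked to that switch in the brain, the fat body and the ovary.

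Workers received an abdominal injection of 500 ng of the juvenile hormone analog methoprene (JHA) or of 500 ng of 20-hydroxyecdysone (20E), both carried in HBSS, a buffered salt solution. Controls received about 1 µL of HBSS with 10% ethanol (EtOH), called solvent below. From 3 individuals per treatment, ovary, fat body of the abdomen and brain without its optic part were collected 12 hours later, which gave 27 libraries of poly(A) RNA in 9 groups of 3. Age, colony and social status of the workers are not given here. These are whole tissues, so fewer cells of a type and less RNA per cell cannot be told apart.

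The brain libraries held 8.74 to 13.4 M (mega) counts on genes, with a range from 13.1 to 21.6 M for fat body and from 9.74 to 17.4 M for ovary. None of the identifiers could be paired with a gene name (0 of 20659 were found among 14329 annotated genes of the species). No function, hormone-response role, tissue marker or sequence is therefore stated for any gene, and at most 2 identifiers per direction are given for each comparison. Within the brain libraries, the first principal component held 33.4% of the variance and set solvent replicate 3 (score 42.02) and JHA replicate 1 (47.7) apart from the other solvent and JHA libraries (-7.5 to 0.53), with the 20E libraries at -34.31 to -12.07. In ovary that component held 44.3% of the variance, with JHA replicate 1 at -83.79, 20E replicate 3 at -25.46 and the other libraries at -4.12 to 32.65. Named values that move by over 1.5 times without these libraries are also given without them.

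Few brain genes separated the JHA libraries from the rest. Of the 11399 genes that reached 2 CPM in a brain group, 277 had all JHA values beyond all 6 others, which is 2.43%. In ovary, where edgeR called no gene with JHA, the share of all genes tested was 2.32%. Some genes separate in this way without any effect of JHA, and whether the brain share exceeds that was not tested. Of these, 125 lay above (1.1%) and 152 below (1.33%). The ratio criterion left 67, and 19 of those were dropped because solvent and 20E did not overlap. A further 129 genes were separated, with overlapping solvent and 20E values, but missed the ratio.

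At the edge of the ratio criterion, genes just inside and just outside differed little in ratio. The raised gene just inside had a ratio of 1.51, with 2.64 ± 0.577 CPM in solvent, 2.74 ± 0.493 in 20E and 4.23 ± 0.852 in JHA brains (SD, n = 3 throughout). The nearest gene outside had a ratio of 1.45, at 126 ± 16.6, 111 ± 16.3 and 183 ± 21.8 CPM. On the low side the gene just inside had a ratio of 0.661, at 2.1 ± 0.599, 2.0 ± 0.393 and 1.22 ± 0.479 CPM. The nearest gene outside had 0.669, at 22.3 ± 1.4, 20.0 ± 3.82 and 14.7 ± 2.05 CPM.

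Most of the 48 genes lay close to their threshold. Among the raised genes the ratio of JHA to solvent ran from 1.51 to 13.5 with a median of 1.81, and 9 of 25 were at least 2-fold higher. Among the lowered genes the ratio ran from 0.284 to 0.661 with a median of 0.58, and 2 of 23 were at least 2-fold lower. Against 20E, the medians of the ratio were 1.79 for the raised and 0.602 for the lowered genes. The ratio of 20E to solvent spread from 0.671 to 1.62 among raised genes and from 0.552 to 1.65 among lowered genes, so single genes also had unequal 20E and solvent means.

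**Figure D1:**
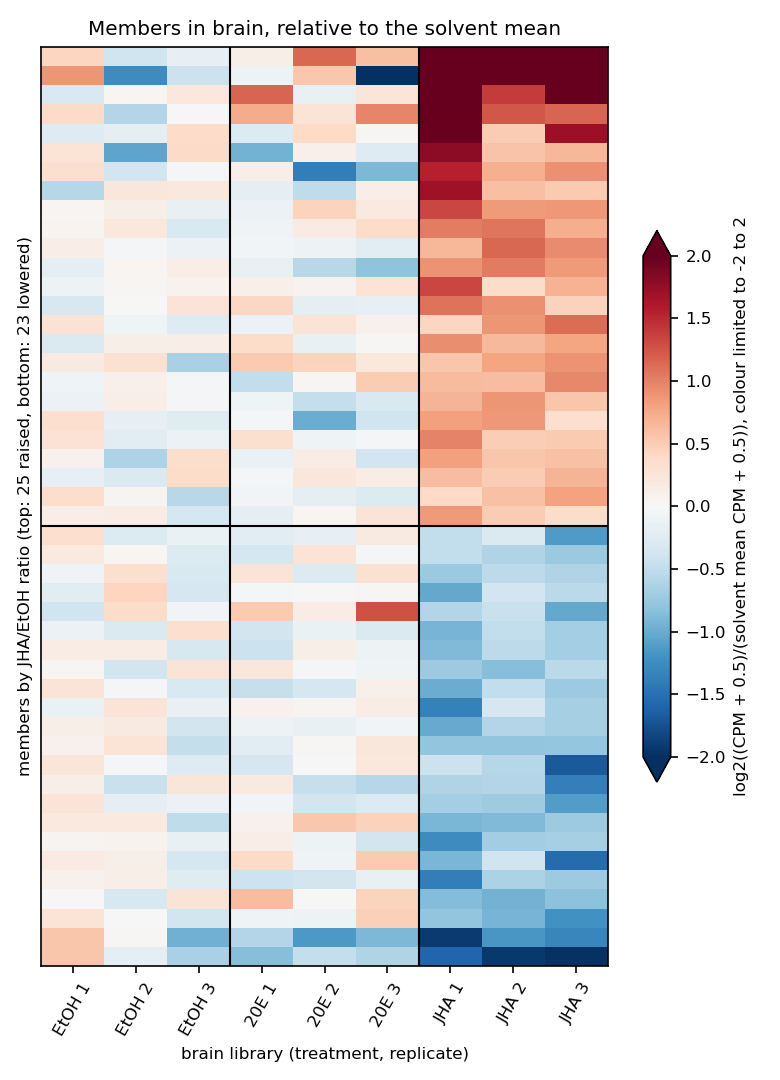
Each line of the map is 1 of the 48 genes and each column 1 of the 9 brain libraries, and colour gives the log2 ratio of CPM + 0.5 to the solvent mean + 0.5, limited to -2 and 2. The 25 raised genes (top) are red and the 23 lowered genes (bottom) blue in all 3 JHA columns, which is what the rule asked for, and most ratios are modest (medians 1.81 and 0.58).

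The distance between the nearest JHA library and the nearest other library was small for many of them. With 0.5 CPM added to both, that gap was under 1.1-fold for 19 of the 48 genes and at least 1.5-fold for 4. Expression was low for many: the highest brain group mean was under 5 CPM for 18 genes, between 5 and 50 for 19, and 50 or more for 11. Lowered genes included 11 of the 18 lowest, and 34 of the 48 had more than 10 counts in every brain library. The most abundant raised gene stood at 408 ± 78.1 CPM in solvent, 429 ± 68.0 in 20E and 657 ± 133 in JHA brains. The most abundant lowered gene stood at 168 ± 37.4, 183 ± 44.2 and 85.9 ± 12.6 CPM.

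A pair of raised genes stood far from the others. HSALG027514.1 was at 2.51, 1.19 and 1.48 CPM in the solvent brains, 1.91, 4.44 and 2.89 in the 20E brains and 59.0, 13.4 and 16.5 in the JHA brains. The lowest JHA value was thus well above the highest other value, and JHA replicate 1 was the highest library. Its ratio was 13.5 against solvent and 8.41 against 20E, and 6.93 and 4.31 without that library. HSALG017235.2 was at 5.64, 0.896 and 1.97 CPM in solvent, 2.6, 4.34 and 0.263 in 20E and 35.9, 21.7 and 41.1 in JHA brains. All 3 JHA values lay far above all others, with a ratio of 10.0 against solvent and 11.5 against 20E.

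The lowered genes with the largest ratios were more graded. HSALG000619.2 was at 49.4, 29.5 and 21.2 CPM in solvent, 18.3, 23.9 and 21.9 in 20E and 10.8, 8.4 and 8.13 in JHA brains. All JHA values lay under all others, and its ratio was 0.284 against solvent and 0.439 against 20E. HSALG011997.2 was at 81.9, 56.4 and 28.3 CPM in solvent, 37.0, 24.7 and 29.4 in 20E and 14.3, 24.6 and 22.1 in JHA brains. Its highest JHA value nearly met its lowest 20E value (24.6 against 24.7 CPM), so the ratio of 0.372 rests largely on the solvent libraries. Without solvent replicate 3 neither gene met the rule, because the remaining solvent values lay above all 20E values.

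**Figure D2:**
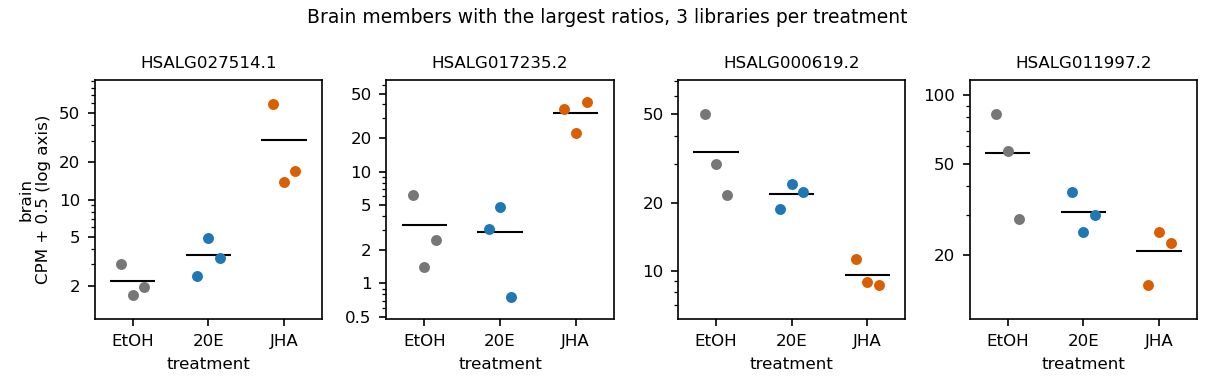
CPM + 0.5 on a log axis in the 3 solvent (grey), 20E (blue) and JHA (orange) brain libraries for the 2 raised and 2 lowered genes with the largest ratio, where a line marks the mean. HSALG027514.1 and HSALG017235.2 show a wide gap between JHA and the rest, while for HSALG011997.2 the JHA and 20E values nearly meet.

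Against 20E the order of the lowered genes was different. HSALG021293.1 was at 1.7, 3.21 and 2.27 CPM in solvent, 3.64, 2.72 and 6.48 in 20E and 1.43, 1.62 and 0.916 in JHA brains. Its 20E values lay mostly above solvent, and the JHA values under both, with a ratio of 0.381 against 20E and 0.63 against solvent. HSALG004208.2 was at 15.6, 12.4 and 18.8 CPM in solvent, 24.1, 15.7 and 21.4 in 20E and 8.31, 7.89 and 8.59 in JHA brains. The JHA values were nearly equal and under all others, with a ratio of 0.419 against 20E. Without solvent replicate 3 its solvent and 20E values no longer overlapped, so it did not meet the rule either.

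The fit over all brain genes used the values that chose these genes, so its counts are a description. With edgeR's quasi-likelihood test at an adjusted p under 0.05, none of the 47 genes that passed the filter on low counts was called between JHA and solvent, and 0 of 12379 genes were called in all (0.0%). At an unadjusted p under 0.05 there were 45 of the 47 and 398 of all genes. Without solvent replicate 3 and JHA replicate 1, 1 gene was called, which was none of the 48. Between JHA and 20E, 8 of the 47 were called (4 raised, 4 lowered), where 2.19% of all genes were called. Between 20E and solvent none of the 47 was called, where 231 of all genes were (1.87%), and 3 (6.38%) had an unadjusted p under 0.05, against 11.6% of all genes. The rule kept genes whose solvent and 20E values overlapped, which itself selects against that difference, so nothing is read from these counts. The label of a shift by JHA therefore rests on separated libraries and ratios, not on a call against solvent.

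JHA replicate 1, one of the brain libraries that stand apart, was often the furthest JHA library. It held the highest JHA value for 13 of the 25 raised genes (52.0%), where it did so for 51.0% of all genes tested, and the lowest for 12 of the 23 lowered genes (52.2%), against 37.5% of all genes. On the scale of log2(CPM + 0.5) relative to the solvent mean, the raised genes had medians of 0.97, 0.86 and 0.83 in JHA replicates 1, 2 and 3, and the lowered genes -0.87, -0.56 and -0.73. When the rule was applied without solvent replicate 3 and JHA replicate 1, 31 of the 48 genes still met it, among 122 genes that did.

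No named marker of another tissue could be read in the brain libraries. In place of markers, and chosen after the data were seen, 75 genes at least 32-fold higher in fat body than in the other tissues and at 100 CPM or more there were summed. Their sum in the brain was 3209 to 6469 CPM in solvent and 2755 to 5573 in 20E libraries. In JHA replicates 1, 2 and 3 it was 6780, 1980 and 6973 CPM, so the ranges of the groups overlapped. JHA replicates 1 and 3 lay above all solvent and 20E libraries, and JHA replicate 2 lay under all of them. In fat body itself the solvent sum was 280328 to 310016 CPM. Whether such RNA has a part in any brain value was not tested.

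The fat body and ovary libraries were not used by the rule and allow tests. In fat body 30 of the 48 genes (18 raised, 12 lowered) passed the filter on low counts, which is 62.5%, against 82.3% of all genes at the brain level of the rule. The other 18 were too low to test there. In ovary 40 (19 raised, 21 lowered) passed. Because the filter works on group levels, a gene expressed under 1 treatment could pass on that group alone, so counts over the tested genes do not stand for all 48. JHA and 20E are each compared with the same solvent libraries, and the p-values measure the spread between ants. The labels do not say which tissues came from the same ant. Deviations from the group means correlated best between same-numbered libraries of 2 tissues in 9 of 9 cases for brain and fat body (r of 0.0856 to 0.3 across genes). For brain and ovary this held in 9 of 9 cases too (r of 0.103 to 0.282). Fat body and ovary are thus not taken as a sample of other ants than the brains, and differences between ants may be shared with the brain values.

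In fat body 2 of the 30 genes changed with JHA, and they moved in opposite directions. That is 6.67% of the tested genes, where edgeR called 111 of 9870 genes (1.12%) at an adjusted p under 0.05. Both belong to the set lowered in brain: HSALG004435.2 fell in fat body too, while HSALG029435.1 rose there. None of the 18 tested raised genes was called. DESeq2 called 5 of the 30 and 624 of all genes, and limma voom 1 and 198. Without any 1 fat body library, edgeR called between 0 and 2 of the 30 and between 4 and 148 of all genes.

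HSALG004435.2 was the most abundant lowered gene, and much higher in fat body than in brain. In brain it was at 204, 169 and 130 CPM in solvent, 158, 157 and 234 in 20E and 97.5, 87.7 and 72.5 in JHA libraries. In fat body it was at 9768, 8794 and 5964 CPM in solvent, 8323, 7004 and 11790 in 20E and 2019, 1889 and 1064 in JHA libraries. All JHA values were under all others in both tissues. In fat body the log2 fold change was -2.40 (SE 0.38), 5.29-fold lower, with an adjusted p of 0.0267 in edgeR's quasi-likelihood test, lower in 3 of 3 JHA libraries. Without solvent replicate 1 or 2 or any 1 JHA replicate the call was lost, with adjusted p-values up to 0.106 and log2 fold changes of -2.16 to -2.60. In solvent ants its fat body level was 48.7-fold its brain level on the CPM scale, and whether fat body RNA in the brain libraries has a part in its brain difference was not tested.

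In ovary HSALG004435.2 showed no common direction. It was at 480, 374 and 410 CPM in solvent, 166, 96.6 and 709 in 20E and 1659, 12.1 and 276 in JHA libraries. The JHA libraries lay on both sides of solvent, and the log2 fold change was 0.51 (SE 1.24), with an adjusted p of 0.915 in edgeR's test. Without JHA replicate 1 and 20E replicate 3 it was -1.57 (SE 1.25), with an adjusted p of 0.715 in edgeR's test.

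HSALG029435.1 was low in all 3 tissues. In brain it was at 3.13, 3.28 and 2.07 CPM in solvent, 2.6, 2.52 and 2.72 in 20E and 1.16, 1.72 and 1.6 in JHA libraries. In fat body it was at 1.01, 0.495 and 1.15 CPM in solvent, 1.14, 2.13 and 1.42 in 20E and 3.29, 6.59 and 4.99 in JHA libraries. The JHA values were thus the lowest in brain and the highest in fat body, with no overlap in either. The fat body log2 fold change was 2.44 (SE 0.44), 5.43-fold higher, with an adjusted p of 0.0442 in edgeR's test. It was called in 5 of 15 alternatives, with adjusted p-values from 6.76e-05 to 0.126, and the call was lost without any 1 solvent or JHA library or 20E replicate 3 (log2 fold changes of 2.08 to 2.71).

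**Figure D3:**
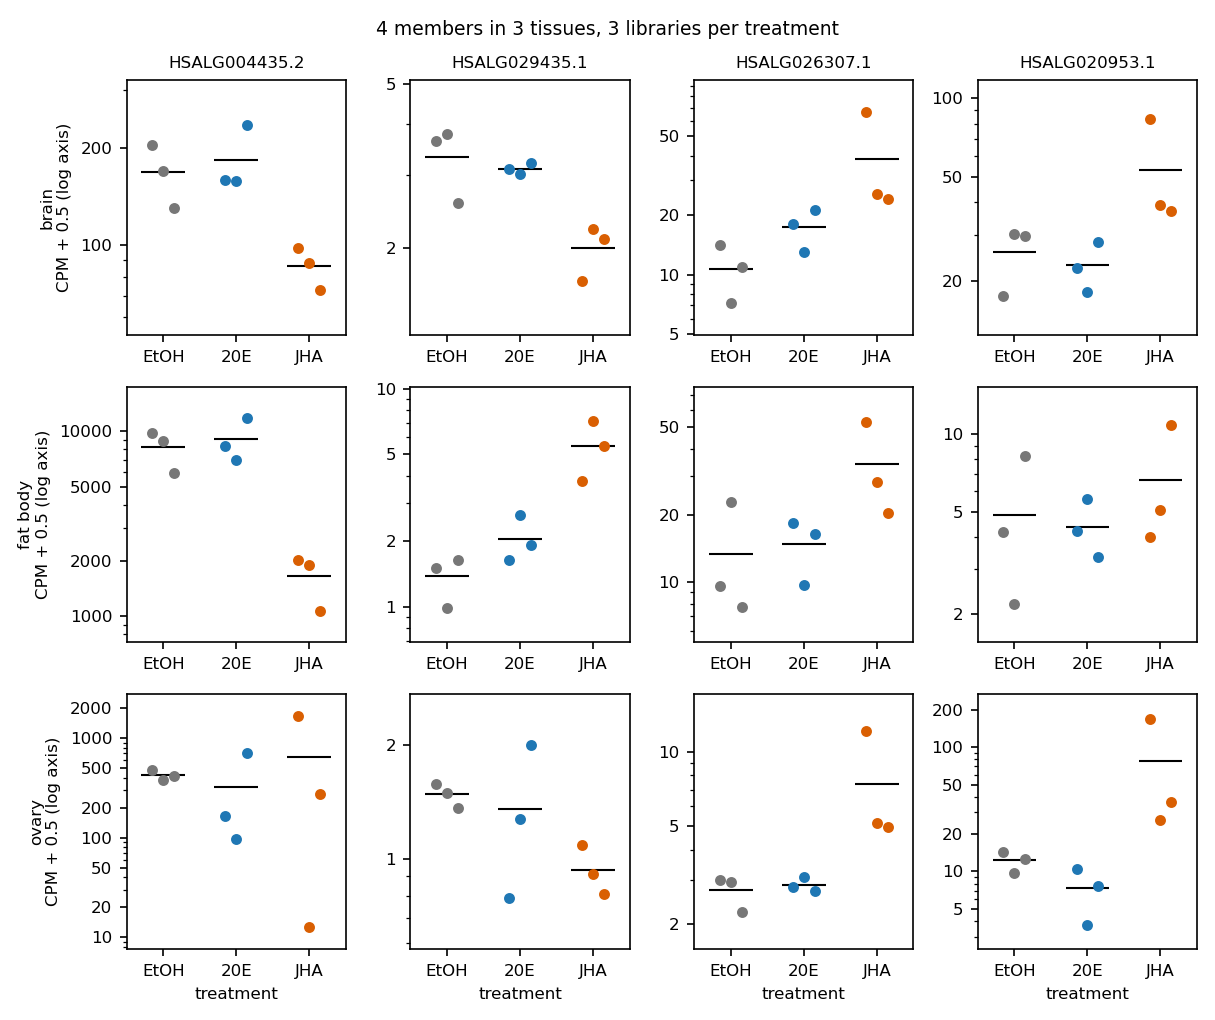
CPM + 0.5 on log axes in brain, fat body and ovary (top to bottom) for 4 of the 48 genes, with 1 point per library and a line at the mean. HSALG004435.2 is lower with JHA in brain and fat body, HSALG029435.1 is lower in brain and higher in fat body, and HSALG026307.1 and HSALG020953.1 have all 3 ovary JHA values above the other 6.

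The other fat body values named by smallest p did not pass. HSALG021293.1, lowered in brain, was at 4.38, 16.5 and 2.67 CPM in fat body of solvent ants, 12.4, 8.4 and 18.3 in 20E and 1.55, 1.02 and 1.33 in JHA ants. Its JHA values were under all others, and the log2 fold change was -2.75 (SE 0.68), with an adjusted p of 0.0917 in edgeR and 0.00102 in DESeq2. Solvent replicate 2 carried part of that value, which was -1.49 without it. HSALG027514.1, the raised gene with the largest brain ratio, was at 1.46, 0.283 and 0.535 CPM in solvent, 0.479, 2.84 and 0.308 in 20E and 3.1, 2.04 and 13.1 in JHA ants. These values rest on 23, 4 and 7 reads in solvent, 8, 44 and 5 in 20E and 50, 44 and 207 in JHA. The gene reached the filter on low counts only with its JHA libraries, so that it was tested at all depended on them. The JHA group overlapped 20E, and the log2 fold change was 2.86 (SE 1.04), with an adjusted p of 0.221 in edgeR and 0.0414 in DESeq2. Without JHA replicate 3, the highest library, it was 1.63.

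HSALG017235.2, the raised gene with the largest brain ratio against 20E, was too low in fat body to test. It had 0.0634 CPM in 1 solvent library and 0 in the other 5 solvent and 20E libraries, against 0.435, 0.0928 and 3.09 CPM in the JHA libraries. The JHA values were the highest, but they rest on 7, 2 and 49 reads, and no fold is given. In ovary it was at 0.158 to 0.554 CPM in solvent and 20E and at 1.27, 0.247 and 2.16 CPM in JHA libraries, which overlap.

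Taking the tested genes as a group, fat body differences lay on the brain side of the rule somewhat more often than not. The library medians of the treatments overlapped, as given below. Of the 18 raised genes, 12 had a fitted log2 fold change above 0 (66.7%, against 48.3% of all genes), with a median of 0.15. The 12 include HSALG027514.1, which reached the filter on low counts only with its JHA libraries. Of the 12 lowered genes, 9 were below 0 (75%, against 51.7%), with a median of -0.62, while the median of all genes tested was -0.02. At an unadjusted p under 0.05 there were 9 of 30 genes (30.0%), against 16.4% of all genes. These were 5 raised genes, HSALG027514.1 among them, and 4 lowered genes, and not all lay on the brain side. Raised genes at log2 fold changes of -1.22 and -0.88 and a lowered gene at 2.44 lay opposite to brain, and the rest lay on the brain side. On plain CPM without TMM scaling, 13 of the 18 raised and 3 of the 12 lowered genes were above 0.

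The criterion of the rule itself was also read in fat body. The 3 JHA values lay above or below all 6 others for 4 of the 30 genes (13.3%), where 6.65% of all genes tested did so (4.41% above, 2.24% below). Among the 18 raised genes none lay above, and HSALG001338.2 lay below (5.56% on either side). Of the 12 lowered genes, 25.0% lay on either side: HSALG004435.2 and HSALG021293.1 lay below and HSALG029435.1 above. With TMM scaled CPM, a setting added after the data were seen, the count was 7 of 30, against 7.03% of all genes.

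**Figure D4:**
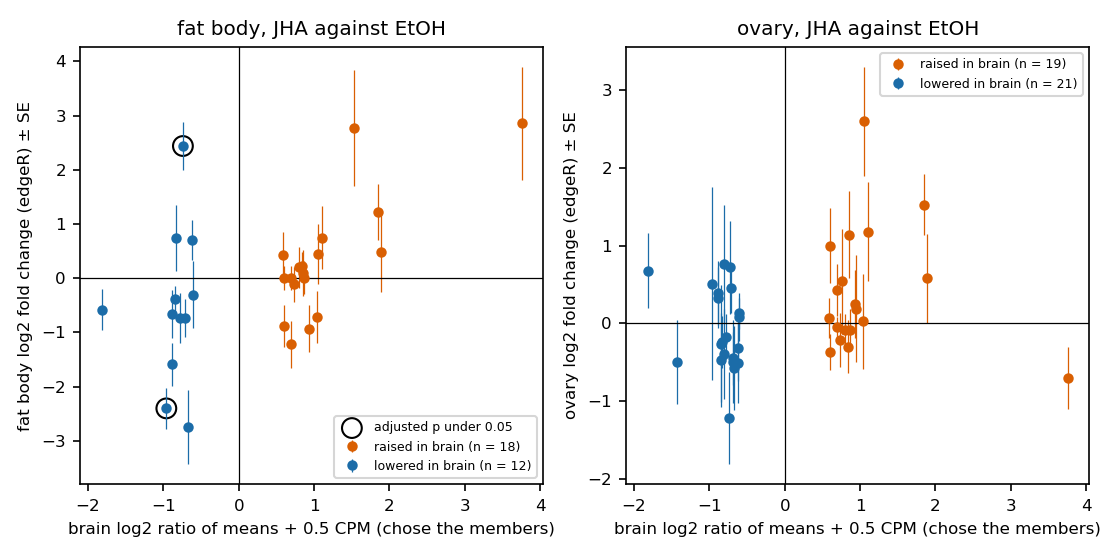
Fitted JHA against solvent log2 fold change (edgeR, ± SE) in fat body (left) and ovary (right) against the brain log2 ratio that chose the genes, for the 30 and 40 genes tested. Circles mark the 2 genes with an adjusted p under 0.05 in fat body, 1 on each side of 0, and none is marked in ovary.

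With 20E, none of the 30 genes was called in fat body, where edgeR called 100 of 9870 genes (1.01%). At an unadjusted p under 0.05 there were 6 of the 30 (20.0%, against 14.2% of all genes), DESeq2 called 1 and limma voom 0. Fitted values were above 0 for 16 of the 30 (53.3%, against 49.0% of all genes). The gene with the smallest p was HSALG004208.2, lowered by the rule in brain, at 110, 47.8 and 36.4 CPM in solvent, 16.0, 20.9 and 29.9 in 20E and 24.6, 21.9 and 22.5 in JHA fat bodies. Both hormone groups lay under all solvent values. Its log2 fold change was -1.64 (SE 0.40) with 20E and -1.59 (SE 0.40) with JHA, with adjusted p-values of 0.104 and 0.0975 in edgeR's test. These fits share their solvent libraries, of which replicate 1 was the highest.

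HSALG011228.2, raised in brain, was the other gene below 0 by the smallest p. It was at 13.5, 9.96 and 17.2 CPM in solvent, 6.64, 8.27 and 11.5 in 20E and 13.3, 13.0 and 16.3 in JHA fat bodies. The 20E values overlapped solvent, with a log2 fold change of -0.68 (SE 0.22) and an adjusted p of 0.193 in edgeR's test. Above 0, HSALG000619.2 (log2 fold change 0.82, adjusted p 0.369) and HSALG005150.2 (2.07, adjusted p 0.415) had the smallest p in edgeR's test. For HSALG005150.2 the 20E values were 18.7, 46.0 and 335 CPM, against 26.8, 25.4 and 34.5 in solvent, so replicate 3 carries that value.

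In ovary none of the 40 tested genes was called with JHA, and neither was any of the 11418 genes tested (0.0%) by edgeR's quasi-likelihood test. At an unadjusted p under 0.05 there were 2 of the 40 (5.0%) and 401 of all genes (3.51%). DESeq2 called 7 genes and limma voom 0, none of them among the 40. The raised genes were above 0 in 12 of 19 cases (63.2%, against 52.0% of all genes), with a median log2 fold change of 0.19. The lowered genes were below 0 in 12 of 21 cases (57.1%, against 48.0%), with a median of -0.24 where all genes had 0.02. Without JHA replicate 1 and 20E replicate 3 the medians were -0.08 and -0.04, so the raised median changed sign.

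JHA replicate 1 carried much of the ovary values. It was the highest of the 9 ovary libraries for 13 of the 19 raised genes (68.4%), as it was for 37.6% of all genes tested. The median of the raised genes relative to solvent was 1.01 in that library and -0.19 and -0.05 in the other JHA libraries, on the scale of log2(CPM + 0.5).

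A pair of raised genes did have all 3 ovary JHA values above the other 6, where 1.52% of all genes tested did so. No lowered gene lay below all 6 (0.797% of all genes), and 2.32% of all genes lay on either side. HSALG026307.1 was at 2.51, 2.45 and 1.73 CPM in solvent, 2.31, 2.59 and 2.22 in 20E and 11.6, 4.61 and 4.42 in JHA ovaries. The solvent and 20E values formed a narrow band and every JHA value lay above it. The log2 fold change was 1.53 (SE 0.39), with an adjusted p of 0.825 in edgeR's test (0.214 to 1.0 over the alternatives), and 0.99 without JHA replicate 1. HSALG020953.1 was at 13.9, 9.2 and 12.2 CPM in solvent, 9.97, 3.24 and 7.21 in 20E and 169, 25.4 and 35.5 in JHA ovaries. JHA replicate 1 was by far the highest, but the other JHA values also lay above all solvent and 20E values. The log2 fold change was 2.60 (SE 0.70), with an adjusted p of 0.825 in edgeR's test (0.0864 to 1.0 over the alternatives). Without JHA replicate 1 it was 1.35.

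HSALG026307.1 also had high JHA values elsewhere. In brain, where it was chosen, it was at 13.6, 6.72 and 10.4 CPM in solvent, 17.6, 12.6 and 20.7 in 20E and 65.9, 25.0 and 23.6 in JHA libraries. JHA replicate 1 was the highest, and the ratio to solvent was 3.59 with it and 2.3 without it. In fat body it was at 9.13, 22.5 and 7.18 CPM in solvent, 17.9, 9.17 and 16.0 in 20E and 52.6, 27.9 and 20.1 in JHA libraries. The fat body groups overlapped in 1 library, and the log2 fold change was 1.22 (SE 0.51), with an adjusted p of 0.277 in edgeR's test. For HSALG020953.1 the brain ratio to solvent was 2.07, and 1.48 without brain JHA replicate 1, when it did not meet the rule. HSALG020953.1 stayed within overlapping ranges in fat body, at 3.68, 1.7 and 7.71 CPM in solvent and 3.48, 4.59 and 10.3 in JHA libraries.

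Among ovary values below 0, HSALG029435.1 and HSALG027514.1 had the smallest p and did not pass. HSALG029435.1 was at 1.08, 0.996 and 0.866 CPM in solvent and 0.587, 0.412 and 0.308 in JHA ovaries, with 0.288, 0.778 and 1.5 in 20E. JHA lay under solvent but overlapped 20E, with a log2 fold change of -1.22 (SE 0.59) and an adjusted p of 0.825 in edgeR's test. These JHA values rest on 6, 5 and 3 reads. HSALG027514.1 was at 2.98, 5.67 and 4.96 CPM in solvent and 1.86, 3.21 and 3.59 in JHA ovaries, which overlap, with a log2 fold change of -0.70 (SE 0.40). Without JHA replicate 1 and 20E replicate 3 that fold change was -0.43.

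**Figure D5:**
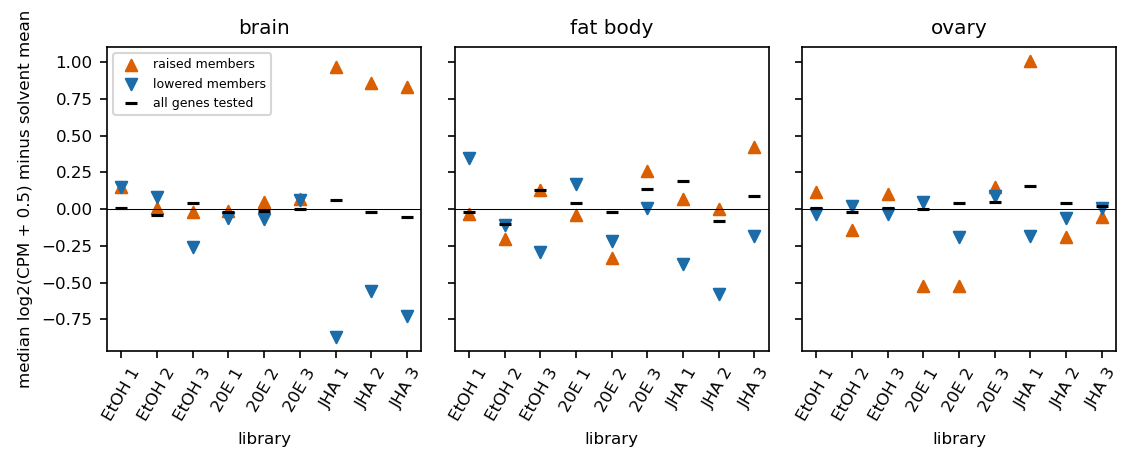
Median over the raised (up triangles) and lowered genes (down triangles) and over all genes tested (dashes) of log2(CPM + 0.5) minus the solvent mean, for each library of the 3 tissues. In brain the 3 JHA libraries lie at 0.83 to 0.97 and -0.87 to -0.56 by construction, while in ovary only JHA replicate 1 has a high raised median (1.01).

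With 20E in ovary, none of the 40 genes and none of the 11418 tested was called by edgeR (0.0%), with 1 of the 40 (2.5%) and 274 of all genes (2.4%) at an unadjusted p under 0.05. Fitted values were above 0 for 12 of the 40 (30.0%, against 51.3% of all genes), and the raised genes had medians of -0.52 relative to solvent in 20E replicates 1 and 2 and 0.15 in replicate 3. DESeq2 called 38 genes and none of the 40, and limma voom with library weights called 307 genes and 4 of the 40. Without JHA replicate 1 and 20E replicate 3, edgeR called 370 genes and 3 of the 40. HSALG001871.2, raised in brain, was at 207, 211 and 241 CPM in solvent and 124, 151 and 216 in 20E ovaries. Its 20E values overlapped solvent through replicate 3, and the log2 fold change of -0.47 (SE 0.26, adjusted p 1.0 in edgeR) became -0.70 with an adjusted p of 0.0182 without those libraries. HSALG004208.2 was at 7.79, 8.89 and 16.7 CPM in solvent and 27.8, 28.3 and 12.4 in 20E ovaries, so 20E replicate 3 again lay inside the solvent range, with a log2 fold change of 1.01 (SE 0.41, adjusted p 1.0 in edgeR, 0.0358 in limma voom). The other genes named by smallest p were HSALG028442.1 (log2 fold change 0.73, SE 0.41) and HSALG027386.1 (-0.65, SE 0.34). Both are lowered in brain, and neither was called in edgeR or in any alternative. Without JHA replicate 1 and 20E replicate 3, HSALG028442.1 had a log2 fold change of 0.44.

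The test of the difference between tissues compared the JHA effect in fat body with that in ovary, in 1 fit of 18 libraries. Of the 42 genes tested, 1 was called (2.38%), where 40 of 11999 genes were called (0.333%). At an unadjusted p under 0.05 there were 9 of the 42 (21.4%, against 13.6% of all genes), and 17 of the 42 differences were above 0 (40.5%, against 44.8%). Only 30 of the 48 genes passed the filter in fat body alone, so some of the 42 were too low there to test. A lowered gene without fat body reads in solvent or JHA had a difference of 0.26 with an SE of 762. HSALG017235.2 reached the filter only with JHA libraries. These shares are thus a description. HSALG029435.1 had a difference of 3.65 on the log2 scale (SE 0.73, adjusted p 0.0447 in edgeR's test), from the higher fat body and lower ovary values given above. It was called in 11 of 25 alternatives, with adjusted p-values from 0.000841 to 0.137. The call was lost without any 1 solvent library of either tissue, any 1 ovary JHA library, ovary 20E replicate 2 or fat body JHA replicate 2 or 3 (differences of 3.34 to 3.86). It was also lost with the replicate number as a block within each tissue (3.53, adjusted p 0.116 in edgeR) and with same-numbered libraries of both tissues as a block, added after the data were seen (3.61, adjusted p 0.0956).

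The other differences named by smallest p did not pass in edgeR's test. HSALG005150.2 had a difference of 10.79 with an adjusted p of 0.116, and this rested on ovary solvent replicate 1, which held 130 CPM where the other 8 ovary libraries held at most 0.392. Without that library the difference was 1.92. HSALG001338.2, the most abundant raised gene, was at 188, 277 and 270 CPM in solvent, 398, 181 and 568 in 20E and 66.8, 113 and 150 in JHA fat bodies. Its JHA values, the highest in brain (810, 575 and 584 CPM against 352 to 507 in the other 6), were the lowest in fat body, and in ovary all groups overlapped (298 to 328 CPM in JHA). The difference between tissues was -1.19 with an adjusted p of 0.285, and that of HSALG004208.2 was -2.0 with an adjusted p of 0.181.

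In solvent ants the 48 genes were spread over all 3 tissues rather than restricted to brain. On the CPM scale the solvent mean was highest in brain for 21 (43.8%), in fat body for 9 (18.8%) and in ovary for 18 (37.5%). For the 11399 genes at the brain level of the rule these shares were 51.7%, 8.54% and 39.8%. In fat body 22 of the 48 had a solvent mean under 1 CPM (45.8%, against 23.5%). Of these, 4 had no read in any fat body solvent library.

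Between fat body and ovary of solvent ants, edgeR called 26 of 42 genes (61.9%), 14 higher and 12 lower in fat body, where 66.7% of 11999 genes were called. The same 26 had an unadjusted p under 0.05 (69.8% of all genes did), and 18 of the 42 were above 0 (42.9%, against 47.5%). TMM scaling moved the median of all genes by 1.74 on the log2 scale against plain CPM, and on plain CPM 10 of the 26 were higher in fat body, so 4 changed direction. HSALG004435.2 was 19.4-fold higher in fat body on plain CPM, and its fitted log2 difference was 6.09 (SE 1.22, adjusted p 0.000425 in edgeR). HSALG007327.2, also lowered in brain, was at 1582, 667 and 804 CPM in fat body and 60.5, 48.7 and 86.6 in ovary, with a fitted log2 difference of 5.76 (SE 0.42, adjusted p 2.1e-08 in edgeR). On the ovary side, HSALG011997.2 was at 0.444, 0.0 and 0.382 CPM in fat body and 78.9, 88.7 and 67.6 in ovary, with a fitted log2 difference of -6.34 (SE 0.71, adjusted p 1.64e-06 in edgeR). HSALG029055.1 had no read in the fat body solvent libraries and 1.76, 5.13 and 2.21 CPM in ovary. Against a floor of 3 counts over the group (0.0697 CPM) it was at least 43.5-fold higher in ovary on the CPM scale, with an adjusted p of 0.00726 in edgeR. HSALG004435.2 and HSALG011997.2, both lowered by the rule in brain, thus lay far to opposite sides between fat body and ovary.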

How the data were processed

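Poly(A) RNA of 27 libraries was measured. The authors deposited 1 table of raw read counts for each gene identifier. The submitters' processing notes name STAR 2.5.3a, HTSeq and Trimmomatic. Build, annotation and strand setting are not given here, so reads of overlapping, antisense or near-identical genes may be mixed or lost. The 5 summary lines of the count table were left out of library sizes and tests.

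CPM used plain library totals, as the rule states. Tests used edgeR 4.0.16 under R 4.3.3 (TMM scaling, filterByExpr, robust quasi-likelihood F test, Benjamini-Hochberg over all genes tested, called under 0.05), with 1 fit of 9 libraries per tissue and 1 of the 18 fat body and ovary libraries. Standard errors follow from the F statistic. Alternatives were no filter, a replicate block, DESeq2 1.42.0, edgeR with DESeq2 size factors, limma 3.58.1 voom with library weights, only the 2 groups compared, and leaving out libraries. The fits were tested on simulated counts. No 2 replicates of a group agreed within sampling noise (lowest chi-square per degree of freedom 7.94). The 18-library fit treats tissues of an ant as independent, and an added alternative takes same-numbered libraries of a treatment as 1 ant.

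The members, lists and tests were chosen with earlier results of these data known. Per comparison, the 2 genes in each direction with the largest ratio (brain) or largest fold among those called (solvent ants) or the smallest p (elsewhere) are named, and HSALG017235.2, HSALG026307.1 and HSALG020953.1 are followed into other tissues. The lists of hormone response genes and cell type markers needed gene names and were not used.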

Additional observations from a re-analysis of the deposited data

Results flagged for a closer look

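One result showed unlike JHA differences in 2 tissues by the test of the difference itself. For HSALG029435.1 the JHA effect in fat body minus that in ovary was 3.65 on the log2 scale (SE 0.73, adjusted p 0.0447 in edgeR's quasi-likelihood test), higher than all other treatments in 3 of 3 fat body JHA libraries and lower than solvent in 3 of 3 ovary JHA libraries. The call was lost in 14 of 25 alternatives, among them the replicate block within each tissue (3.53, adjusted p 0.116 in edgeR) and the block shared by both tissues (3.61, adjusted p 0.0956), with adjusted p-values of 0.000841 to 0.137 over all 25. Its highest group mean in either tissue was 4.96 ± 1.65 CPM (SD, n = 3), in fat body with JHA. The ovary side rests on few reads: 6, 5 and 3 in JHA libraries against 16, 13 and 11 in solvent. The 20E ovaries had 5, 12 and 19 reads and overlapped both groups.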

How the results depend on the processing

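Each gene named by the rule for a tested comparison kept its direction under every alternative run, and the calls of the 4 genes named between fat body and ovary of solvent ants held in all 25. Members called and all genes called moved as follows. In fat body with JHA (2 and 111), DESeq2 gave 5 and 624 and limma voom 1 and 198. There, the replicate block and the fit of only the 2 groups gave 1 member, and leaving out 1 library 0 to 2 members and 4 to 148 genes. In fat body with 20E (0 and 100), DESeq2 gave 1 and 524, the replicate block 52 genes, limma voom 66, only the 2 groups 33 and leaving out 1 library 13 to 105. In ovary with JHA (0 and 0), DESeq2 gave 7 genes, and removing JHA replicate 1 with 20E replicate 3 gave 1. In ovary with 20E (0 and 0), DESeq2 gave 38 genes, no filter 1, limma voom 307 with 4 members, removal of those libraries 370 with 3 members, and leaving out 1 library 0 to 3 genes. For the difference between tissues (1 and 40), DESeq2 gave 2 and 297, the replicate block 0 and 24, a block shared by both tissues 0 and 22, limma voom 251 genes, and leaving out 1 library 0 to 1 members and 15 to 64 genes. In brain, removing solvent replicate 3 and JHA replicate 1 gave 1 gene against solvent and 423 against 20E, and 1 member between 20E and solvent. The cause was not tested.

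The fat body median of the lowered genes (-0.62) was -0.34 without the filter, which adds low genes, and -0.69 to -0.46 without 1 library. In ovary (-0.24) it was -0.40 with the replicate block, -0.06 with limma voom, -0.04 without the libraries that stand apart and -0.35 to -0.04 without 1 library. The raised median ran from 0.02 to 0.2 in fat body and from -0.09 to 0.56 in ovary without 1 library.

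Of the 48 genes, 29 met the rule with 2 added in the ratio, 30 with a lowest group mean of 5 CPM, and 33 to 47 without 1 brain library, when 46 to 166 genes met it. Without solvent replicate 3 and JHA replicate 1, 31 of them met it, among 122 genes. With TMM CPM, 7 genes were separated in fat body, where all genes rose to 7.03%, and in ovary without the libraries that stand apart 6.88% of all genes were.

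Within a tissue, replicate numbers did not pair the samples, since correlations of same-numbered deviations ran from -0.45 to 0.248 (brain), -0.211 to 0.449 (fat body) and -0.367 to 0.421 (ovary). Between fat body and ovary, same-numbered libraries of a treatment correlated best with each other in 9 of 9 cases, over 0.1 in 8 (0.0789 to 0.312), a hint from the data and not from the labels that a number marks an ant, which is why that block was added after the data were seen. With 3 ants per group and 18 of 48 genes too low to test in fat body, a p that misses the threshold does not show that a gene did not differ. Intervals for low genes are wide: 14 of the 48 had 10 counts or fewer in a brain library.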

Other observations

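Among the 48 genes, 2 pairs have consecutive identifier numbers. The identifiers carry no coordinates in the sources used here, so whether such genes are neighbours was not tested.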
